A study of Arabidopsis thaliana with 27 samples.

Results

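The cortex of the Arabidopsis root was approached by subtraction: 3 arrays of the marker line J0571, whose GFP marks the endodermis, the cortex and the quiescent centre, were set against 3 arrays of the marker line SCR, whose GFP marks the endodermis and the quiescent centre. By the labels the cortex is the tissue that J0571 adds. The 6 arrays were chosen by the line name in their titles, out of 27 in the series. The J0571 arrays (J0571:GFP) come from the Columbia background and the SCR arrays (SCR:GFP) from Landsberg, so the added tissue and the background cannot be told apart. All plants of both lines grew on MS medium with 4.5% sucrose, in days of 16 h light and 8 h dark. The labels carry the SCR marking past the zone of mature hairs and give no such extent for J0571. SCR replicate 1 bears the line and background labels but no tissue label. Nothing in the labels says whether GFP-positive cells were sorted or whether replicates came from separate cultures, so the spread behind each p-value is that between arrays and may be technical. The other 9 line arrays (WOL, stele, and GL2, non-hair epidermis, both Columbia, and J3411, lateral root cap plus epidermis, C24) and 12 arrays of Columbia root segments, 4 per developmental stage, are given only beside these results.

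The ground tissue of the root is the pair of cell layers between epidermis and stele. Both layers descend from the same stem cells beside the quiescent centre: an asymmetric division, which needs the transcription factors SHORT-ROOT and SCARECROW (SCR), separates the inner endodermis from the outer cortex. The endodermis builds the Casparian strip, a lignin ring that seals the space between cells, and later suberin lamellae, whereas the cortex has no such barrier and fewer well known defining genes. The best known cortex marker is the promoter of AT1G62500, called CO2, a gene for a small secreted protein with a proline-rich stretch and a lipid-transfer-like domain.

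The J0571 arrays carried the cortex marker, and on the SCR arrays it was at or near background. The signal of AT1G62500 was 487, 97.3 and 673 on J0571 replicates 1, 2 and 3, against 12.7, 16.9 and 13.7 on SCR replicates 1, 2 and 3. The values are signal intensities without a unit, and a signal of 13.0 was taken as background (the 95th percentile of the signals of bacterial controls that were not spiked), so the SCR arrays lay at or just above background. The lines did not overlap, and the fold of the geometric means was at least 22.0 with signals under background raised to it (log2 difference 4.26 ± 0.57 (SE), adjusted p = 0.00107). All tests here are limma's moderated test on log2(signal + 2.38), a scale that understates the change of dim genes, adjusted by the Benjamini-Hochberg method over 22746 probe sets and called at 0.05. CO2 was called in each of the 16 alternative settings, with adjusted p up to 0.0279. J0571 replicate 2 had the lowest signal of the 3 J0571 arrays; without it the log2 difference was 5.10.

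Across the marker lines the order of CO2 was J0571 (419 ± 294, mean ± SD, n = 3 for each line), WOL (21.6 ± 3.90), J3411 (15.8 ± 5.40), SCR (14.4 ± 2.21) and GL2 (10.5 ± 6.92). J0571 stood above all 12 other arrays, whereas the arrays of each of the other 4 lines overlapped those of the next line in that order. In the whole-root segments the lowest, median and highest signals were 15.8, 23.5 and 39.1 in stage I at the tip, 7.94, 12.6 and 16.6 in stage II and 8.90, 11.6 and 17.9 in stage III. Every segment array thus lay below the lowest J0571 array.

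Of the 12 genes listed for cortex and ground tissue, 5 had a probe set with 1 assigned gene, and 2 of these 5 were higher in J0571 and 0 lower. Over all probe sets tested, 5.64% were higher and 3.31% lower. The median log2 difference of the 5 was 0.84, against 0.05 over all probe sets. The second call was JKD, JACKDAW, a zinc finger protein that works with SCR and SHORT-ROOT in patterning the ground tissue. Its signals were 124, 67.1 and 70.7 on the J0571 arrays and 40.8, 16.7 and 33.6 on the SCR arrays, with no overlap (log2 difference 1.48 ± 0.40 (SE), adjusted p = 0.0323). This call was less steady: it was lost without J0571 replicates 1 or 3 or SCR replicates 2 or 3 (adjusted p 0.0637 to 0.169), and with no pseudocount (adjusted p = 0.0818). On the 9 arrays of WOL, GL2 and J3411, JKD lay between 0.889 and 28.8.

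AT1G09750, an aspartyl protease gene, separated both ground tissue lines from the rest. It read 139, 258 and 231 in J0571 and 99.5, 132 and 106 in SCR, against 10.3 to 29.2 on the other 9 arrays. All 6 ground tissue arrays were above all 9 others, and all J0571 arrays were above all SCR arrays, but the difference between J0571 and SCR did not pass the threshold (log2 difference 0.84 ± 0.31 (SE), adjusted p = 0.106). In the segments it had a lowest, median and highest signal of 15.1, 17.8 and 24.1 in stage I, 199.9, 239.8 and 433 in stage II and 116, 161 and 175 in stage III.

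AT3G13840, a GRAS family gene, was near background in both lines, at 14.1, 12.1 and 13.9 in J0571 and 17.0, 14.3 and 7.96 in SCR (adjusted p = 0.949). AT1G62510 is the next gene after CO2 on chromosome 1 in the TAIR10.1 annotation and encodes a protein of the same proline-rich family. It did not follow its neighbour: signals were 18.7, 36.7 and 24.8 in J0571 and 48.1, 23.3 and 13.4 in SCR, overlapping, with a log2 difference of 0.04 ± 0.60 (SE, adjusted p = 0.978). In the segments AT1G62510 had its lowest values in stage I (lowest, median and highest 0.818, 4.84 and 10.4), then 32.2, 51.6 and 75.8 in stage II and 204, 842 and 1214 in stage III. Every stage III array thus lay above every J0571 and SCR array.

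**Figure D1:**
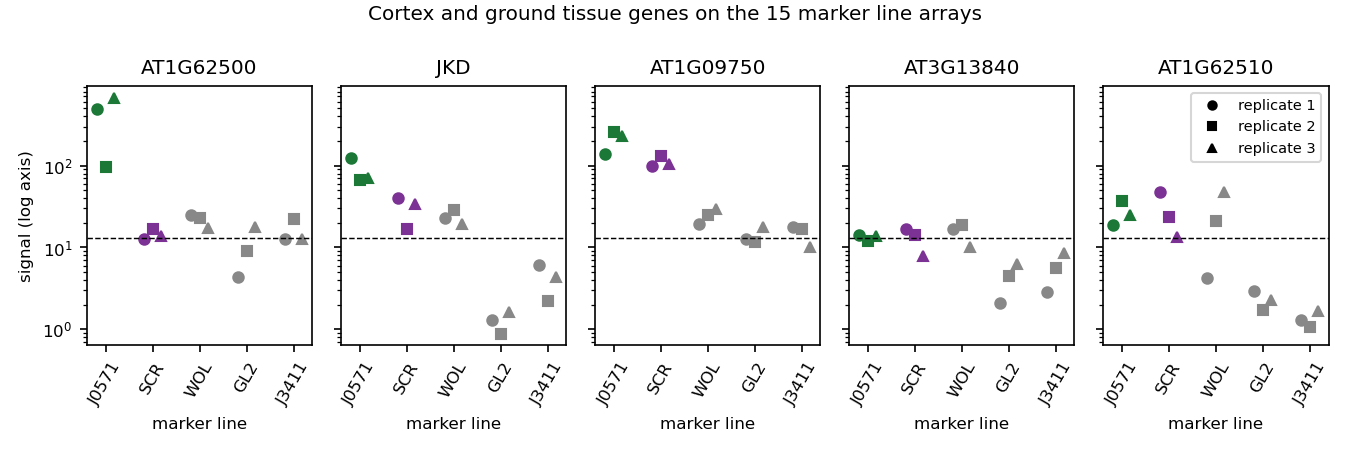
Signal (log axis) of the 5 measured cortex and ground tissue genes on the 15 marker line arrays, J0571 in green, SCR in purple and the other lines in grey, 1 point per array, with replicates by shape and the background of 13.0 dashed. Only AT1G62500 shows J0571 far above all other lines, with replicate 2 (square, 97.3) lowest of the 3. AT1G09750 is above the other lines in both J0571 and SCR, with all J0571 arrays above all SCR arrays.

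The probe sets whose log2 signals ran most like CO2 over the 15 line arrays were 256825_at, which has no assigned gene (Pearson r = 0.942), 264681_s_at, assigned to several genes (0.933), AT3G13190 (0.914), 258359_s_at, with no assigned gene (0.912), and AT2G05790, a glycosyl hydrolase family gene (0.905). These correlations share arrays, scaling and the marker line groups, and are a description. 256825_at read 1019, 70.4 and 801 in J0571, against 8.87, 15.0 and 24.3 in SCR (log2 difference 4.50 ± 0.80 (SE), adjusted p = 0.00444), and like CO2 had its lowest J0571 signal on replicate 2. AT2G05790 had 1249.7, 1069 and 1231 in J0571 and 542, 602 and 575 in SCR (log2 difference 1.04 ± 0.22 (SE), adjusted p = 0.0113), a smaller step at a much higher signal.

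CO2 belongs to the hybrid proline-rich proteins, small secreted proteins of the cell wall. Of 11 such genes measured, 3 rose (CO2, AT2G45180 and AT4G22460) and 0 fell. The share that rose was 27.3%, against 5.64% of all probe sets, but it counts CO2, the marker of this contrast. CO2 is also 1 of the 2 calls of the cortex list. The median log2 difference of the 11 was 0.52, against 0.05 over all probe sets. The median was 0.10 without J0571 replicate 3 and -0.17 with SCR replicate 1 alone, and 1 rose in either case and without SCR replicate 2. AT2G45180 had signals of 365, 530.2 and 530.3 in J0571, against 174, 106 and 181 in SCR and 9.96 to 108 in the other lines (log2 difference 1.63 ± 0.35 (SE), adjusted p = 0.011). J0571 was above the other 12 arrays throughout; the call was lost without J0571 replicate 3 or SCR replicate 2 (adjusted p 0.056 to 0.0606). In the segments its lowest, median and highest signals were 22.7, 48.2 and 51.9 in stage I, 224, 362 and 396 in stage II and 267, 378 and 596 in stage III. AT4G22460 read 70.0, 137 and 51.0 in J0571, against 37.5, 10.5 and 7.53 in SCR (log2 difference 2.24 ± 0.66 (SE), adjusted p = 0.0447). That call was lost without J0571 replicates 1, 2 or 3 or SCR replicates 2 or 3 (adjusted p 0.0793 to 0.165), and with no pseudocount, with quantile normalization or with no intensity trend (adjusted p 0.0598 to 0.0625).

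Several arrays stood apart within their group, and the results below are given with and without them. Signals over all probe sets correlated at r = 0.946 between J0571 replicates 1 and 3 and at 0.924 and 0.934 between replicate 2 and these. J0571 replicate 2 correlated with the SCR arrays at 0.899 to 0.921, against 0.866 to 0.888 for replicate 1 and 0.861 to 0.881 for replicate 3. Among SCR arrays, replicates 2 and 3 correlated at 0.955 and replicate 1 with these at 0.881 to 0.895. The actin 3' control signal was 252 to 286 on the J0571 arrays and 1654 to 2041 on the SCR arrays. On the other lines it was 182 to 206 (J3411), 1216 to 1917 (GL2) and 2230 to 2446 (WOL). The cre spike-in controls averaged 4047 to 7104 on the J0571 arrays, against 4411, 1643 and 1814 on SCR replicates 1, 2 and 3. The 3'/5' signal ratio of GAPDH, which tracks how intact the labelled RNA was, was 0.931 to 1.08 in J0571 and 1.29, 4.09 and 0.717 on SCR replicates 1, 2 and 3 by the older probe sets. By the newer ones it was 0.964 to 1.16 in J0571 and 1.12 to 1.77 in SCR. The part of these differences in the results was not tested. The median signal was 35.0 to 38.9 in J0571 and 27.3 to 40.2 in SCR, and 3 arrays per line limit the precision.

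In the endodermal barrier genes J0571 replicate 2 mostly lay above J0571 replicates 1 and 3. None of 8 Casparian strip genes passed limma's test (0 higher and 0 lower, also 0 at an unadjusted p under 0.05, against 14.1% higher and 9.41% lower at that level over all probe sets), with a median log2 difference of -0.65. GSO1, the receptor kinase that surveys the integrity of the strip, had 449, 1374 and 357 in J0571, against 1149, 819 and 939 in SCR. SGN1 (AT1G61590), a kinase of the same pathway, had 243, 1063 and 176 in J0571, against 959, 409 and 730.1 in SCR. In both genes J0571 replicates 1 and 3 lay below all SCR arrays and replicate 2 above them. The peroxidase gene PER72 (AT5G66390) repeated this order, at 947, 3332 and 755 in J0571 and 2779.6, 1946 and 1925 in SCR.

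DIR9 (AT2G39430), of the dirigent family to which the strip organiser ESB1 belongs, read 853, 2587 and 631 in J0571, against 2235, 1380.2 and 1554 in SCR. DIR18 (AT4G13580), of the same family, read 1053, 3346 and 855 in J0571, against 3009, 1911 and 2001 in SCR. Replicate 2 was again the highest and replicates 1 and 3 the lowest of the 6 arrays. PER39 (AT4G11290) had 1014, 2590.3 and 1035 in J0571, against 3509, 2148 and 2299 in SCR, with replicate 2 inside the SCR range. PER9 (AT1G44970) had 1198, 2732 and 1077 in J0571, against 1717, 711 and 805 in SCR, and was one of 2 members with a positive log2 difference. The other was CIF2 (AT4G34600), the peptide ligand of GSO1, at 43.8, 27.6 and 43.8 in J0571 and 28.9, 18.6 and 17.5 in SCR (adjusted p = 0.406), where J0571 replicate 2 was the lowest of its group.

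The list mean on the log2 scale was 9.02, 10.36 and 8.78 on J0571 replicates 1, 2 and 3, 10.21, 9.45 and 9.63 on SCR replicates 1, 2 and 3, and 3.05 to 9.38 on the other 9 arrays. All 6 arrays carried barrier transcripts, the highest of the other 9 lay above J0571 replicates 1 and 3, and the J0571 array with the lowest CO2 signal had the highest barrier signal. In whole samples like these, fewer cells of a type and less RNA per cell cannot be told apart. Without J0571 replicate 2 the median of the 8 genes was -1.25 and 2 of them were called lower, GSO1 (adjusted p = 0.0322) and SGN1 (adjusted p = 0.0277). Without J0571 replicate 1 the median was -0.43 and without replicate 3 it was -0.28, with 0 called in either case. Of 5 suberin genes none was called by limma (0 higher and 0 lower, 0 and 1 at an unadjusted p under 0.05), with a median of -0.69. Their list mean was 3.95, 4.32 and 4.26 on the J0571 arrays and 4.86, 4.65 and 4.94 on the SCR arrays, without overlap. J0571 lay wholly below SCR in 2 of the 5, and in 9.26% of all probe sets. Only 1 of the 5 passed the filter on dim probe sets. LTPG15 (AT2G48130), a lipid transfer protein gene, had 117, 255 and 84.6 in J0571, against 220.1, 152 and 329.5 in SCR, again highest in J0571 on replicate 2. The genes of the CASP scaffold proteins and of SCR itself were not analysed here, since no probe set is assigned to them.

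**Figure D2:**
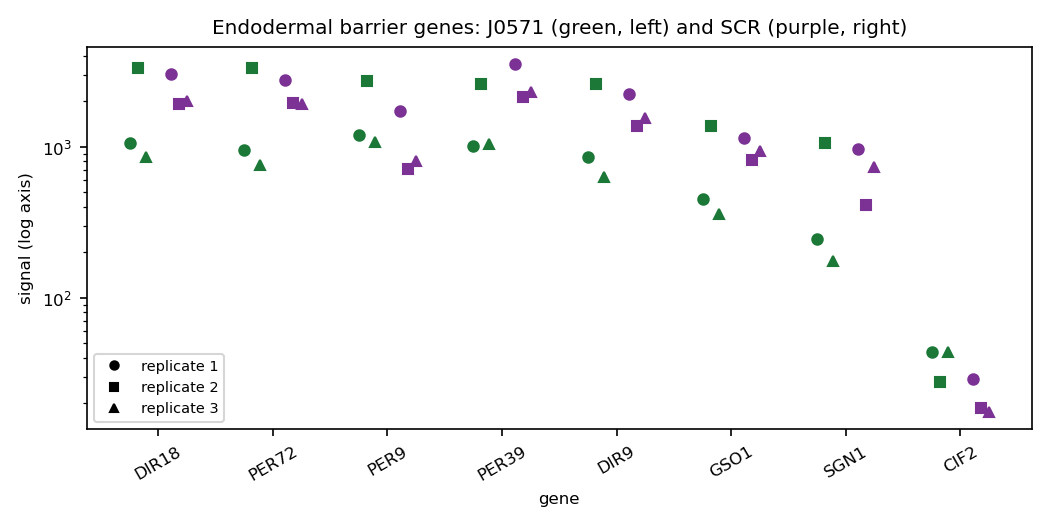
Signal (log axis) of the 8 measured Casparian strip genes, with the 3 J0571 arrays in green on the left and the 3 SCR arrays in purple on the right of each gene, and replicates by shape. J0571 replicate 2 (green square) lies above replicates 1 and 3 for 7 of the genes, and below them for CIF2.

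Over all 22746 probe sets limma called 2036 different between J0571 and SCR, which is 8.95%. Of these, 1284 (5.64%) were higher in J0571 and 752 (3.31%) lower. The lines did not overlap in 1240 of the 1284 and in 694 of the 752 (over all probe sets, J0571 lay wholly above SCR for 13.9% and wholly below for 9.26%). The count hung on single arrays: it was 475 without J0571 replicate 1, 2681 without replicate 2 and 586 without replicate 3, and 3329, 869 and 902 without SCR replicates 1, 2 and 3. A call in the same direction without each of the 6 arrays was made for 416 of the 2036, of which 258 were higher and 158 lower. With only the J0571 and SCR arrays in the fit 353 were called. Of the 75 called genes besides CO2 that the naming rule takes, 36 were not called in that fit. Among them AT1G29980, AT1G56300, AT1G66250, AT2G15560, AT2G19310, AT5G53680, BGLU16, EXPA4, TBL36 and UGT73B4 kept their call without each single array (adjusted p 0.0549 to 0.0803 with only the 6 arrays). With SCR replicate 1 as the only SCR array, whose spread is then assumed to be like that of the other lines, 345 were called.

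J0571 replicate 2 was the lowest J0571 array in 1060 of the 1284 higher probe sets (82.5%, against 41.9% of all probe sets). It was the highest in 482 of the 752 lower ones (64.1%, against 31.7% of all). Its values thus lay nearest to SCR in most calls of either direction. SCR replicate 1 was the highest SCR array in 715 of the 1284 (55.7%, against 51.1% of all probe sets) and the lowest in 547 of the 752 (72.7%, against 27.1% of all).

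For part of the calls, the other 3 lines show on which side the difference stood out. Of the 1284 higher probe sets, 93 had J0571 above all 12 other line arrays (0.844% of all probe sets did), 536 had SCR below all 12 others (3.13% of all did), 8 had both and 663 had neither. Of the 752 lower ones, 231 had SCR above all others (1.98% of all), 93 had J0571 below all others (0.681% of all), 4 had both and 432 neither. The selection of called probe sets raises all of these shares. SCR is the only Landsberg line, so an order with SCR apart does not separate its tissue from its background.

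**Figure D3:**
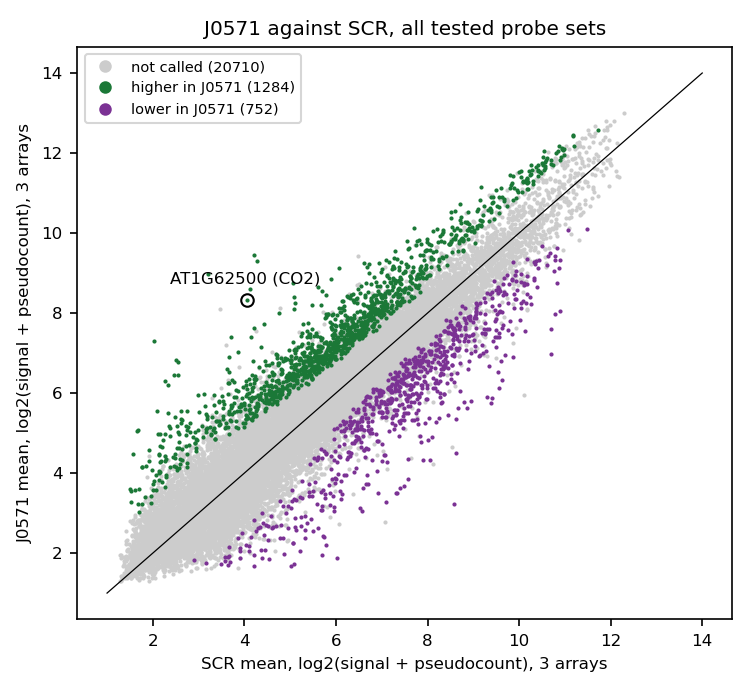
Mean log2(signal + 2.38) of the 3 J0571 arrays (vertical) against the 3 SCR arrays (horizontal) for 22746 probe sets, with the 1284 called higher in J0571 in green and the 752 called lower in purple. AT1G62500 (circled) lies among the points farthest above the line of equality.

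J0571 lay above all 12 other line arrays in 0.844% of all probe sets. Of these, 27 were genes called higher with a J0571 mean of at least 100. Such an order does not single out the cortex, since J0571 also marks the endodermis and quiescent centre and differs from SCR in background. Ranked by the lowest J0571 over the highest other signal, CO2 came first. AT2G15560 came second, with 732, 569 and 812 in J0571, against 205, 4.25 and 2.29 in SCR and 7.21 to 47.3 in the other lines (log2 difference 5.24 ± 0.95 (SE), adjusted p = 0.00482). SCR replicate 1 stood well above the other SCR arrays, which were under background, and the fold was at least 21.4 with low signals raised to background. AT1G55360 had 391, 286 and 355 in J0571, against 89.4, 61.9 and 72.4 in SCR (log2 difference 2.17 ± 0.28 (SE), adjusted p = 0.000748). AT2G45180, described above, came next in that ranking.

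AT2G23700 read 116, 111 and 105 in J0571, against 17.7, 25.4 and 43.3 in SCR (log2 1.94, adjusted p = 0.00812). The transporter gene AT5G65380, of the MATE family that exports small molecules, read 286, 208 and 284 in J0571, against 133, 122 and 98.4 in SCR (log2 1.12, adjusted p = 0.0127); its call was lost without J0571 replicates 1 or 3 or SCR replicate 3 (adjusted p 0.0562 to 0.0748). The signals of AT1G29980 were 509, 331 and 388 in J0571, against 102, 218 and 153 in SCR (log2 1.41, adjusted p = 0.00642). The geometric means of AT1G55360, AT2G23700, AT5G65380 and AT1G29980 differed by 2.19-fold to 4.63-fold. AT3G15240 had 179, 182 and 143 in J0571, against 13.1, 1.49 and 35.3 in SCR (log2 3.69, adjusted p = 0.00228). AT2G46230 had 1458, 987 and 1341 in J0571, against 330.3, 567 and 487 in SCR (log2 1.46, adjusted p = 0.00419). AT4G03140 had 193, 108 and 184 in J0571, against 51.0, 45.6 and 49.8 in SCR (log2 1.64, adjusted p = 0.00495). The calls of AT1G55360, AT2G23700, AT1G29980, AT3G15240, AT2G46230 and AT4G03140 held without each of the 6 arrays.

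Many of the largest rises, by contrast, were genes as bright in some other line as in J0571 and low in SCR. AT4G29200 read 733, 547 and 606 in J0571, against 21.5, 17.6 and 12.8 in SCR (log2 difference 5.02 ± 0.43 (SE), adjusted p = 2.15e-05), and up to 717 in another line. AT2G07777 read 164, 90.9 and 83.2 in J0571 and 5.05, 3.49 and 2.16 in SCR, all SCR arrays under background, against 67.8 to 209 in the other 9 arrays (log2 difference 4.24 ± 0.40 (SE), adjusted p = 5.04e-05). AT4G02450, encoding a p23 co-chaperone of HSP90, read 672, 471 and 544 in J0571 and 96.7, 60.9 and 46.4 in SCR, against 377 to 974 in the others (log2 difference 3.05 ± 0.30 (SE), adjusted p = 7.21e-05). In AT2G07777 and AT4G02450, and in AT1G66250 and AT2G34357 below, the SCR arrays were the ones apart from all 12 others. AT4G38660, of the thaumatin family, had 356, 275 and 253 in J0571 and 14.6, 79.1 and 61.1 in SCR, against 72.7 to 389 in the others (log2 2.72, adjusted p = 0.00378). AT1G66250, a glycosyl hydrolase family gene, had 155, 71.8 and 77.2 in J0571 and 19.4, 0.849 and 24.5 in SCR, against 50.4 to 136 in the others (log2 2.98, adjusted p = 0.00702). AT2G34357 had 218, 52.0 and 141 in J0571 and 16.0, 3.68 and 16.2 in SCR, against 55.4 to 122 in the others (log2 3.23, adjusted p = 0.00238). The calls of all 6 genes held without each of the 6 arrays.

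In ICL, LCR69 and AT3G18280, also among the largest rises, J0571 replicate 2 was the lowest of its group, as it was for CO2. ICL, isocitrate lyase of the glyoxylate cycle, read 324, 7.72 and 439 in J0571, against 3.69, 2.58 and 3.58 in SCR. J0571 replicate 2 and all SCR arrays were under background (log2 difference 4.33 ± 1.21 (SE), adjusted p = 0.0373), and ICL's call was lost without J0571 replicates 1 or 3 or SCR replicates 2 or 3 (adjusted p 0.0978 to 0.177) and with no intensity trend (0.0551). The defensin gene LCR69 (PDF2.2) read 254, 67.1 and 522 in J0571, against 19.7, 17.4 and 20.0 in SCR (log2 difference 3.30 ± 0.59 (SE), adjusted p = 0.00444), and the call was kept without each array. AT3G18280, of the lipid transfer family, read 317, 176 and 500.4 in J0571, against 49.8, 24.6 and 26.7 in SCR and up to 1293 in another line (log2 difference 3.15 ± 0.57 (SE), adjusted p = 0.0047).

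On the other side, SCR lay above all 12 other line arrays in 1.98% of all probe sets. Of these, 98 were genes that fell and had an SCR mean of at least 100. First among them was AT4G36430, a class III peroxidase gene, with 57.8, 145 and 56.2 in J0571, against 632, 688 and 1119 in SCR and at most 167 in the other lines (log2 difference -3.29 ± 0.60 (SE), adjusted p = 0.00495). The defensin-like gene LCR66 had 14.9, 16.7 and 8.81 in J0571, against 54.5, 138 and 133 in SCR (log2 -2.73, adjusted p = 0.0214); the call was lost without J0571 replicates 1 or 3 or SCR replicates 2 or 3 (adjusted p 0.0748 to 0.0939), and with no pseudocount (0.0839). AT1G50290 had 29.1, 22.6 and 48.9 in J0571, against 122, 147 and 198 in SCR (log2 -2.17, adjusted p = 0.00178). AT1G17300 had 59.8, 35.0 and 37.3 in J0571, against 134, 181 and 227 in SCR (log2 -1.99, adjusted p = 0.007). J0571 replicate 2 was the highest of its group in AT4G36430 and LCR66 and the lowest in the other two. The terpene synthase gene AT3G29410 read 96.9, 227 and 97.6 in J0571, against 417, 864 and 648 in SCR and at most 49.1 elsewhere (log2 -2.23, adjusted p = 0.0323). In this gene both ground tissue lines lay above the other 3 lines, J0571 replicate 2 being highest in its group; the call was lost without J0571 replicates 1 or 3 or SCR replicates 2 or 3 (adjusted p 0.0971 to 0.141), and with no pseudocount (adjusted p = 0.0538).

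AT4G19720, of the chitinase-like glycosyl hydrolases, read 31.2, 45.1 and 9.26 in J0571, against 82.1, 189 and 127 in SCR (log2 -2.27, adjusted p = 0.0213); its call was lost without J0571 replicates 1 or 3 or SCR replicates 2 or 3 (adjusted p 0.0625 to 0.109). TBL37, of the family of wall polysaccharide O-acetyltransferases, read 342, 618 and 371 in J0571, against 1247, 2480.3 and 1893 in SCR (log2 difference -2.07 ± 0.35 (SE), adjusted p = 0.00325). AT3G21690, of the MATE family, read 29.1, 56.9 and 54.6 in J0571, against 109, 338 and 288 in SCR (log2 -2.23, adjusted p = 0.00495). In all 3 genes SCR replicate 2 was the highest array. AT5G52670 read 38.2, 38.9 and 31.1 in J0571, against 63.0, 170.4 and 292 in SCR (log2 -1.96, adjusted p = 0.0402); its call was lost without J0571 replicates 1, 2 or 3 or SCR replicates 2 or 3 (adjusted p 0.0573 to 0.167), and with no pseudocount (0.124). UGT87A2, a UDP-glycosyltransferase, read 27.1, 51.2 and 43.4 in J0571, against 244, 372 and 196 in SCR (log2 -2.66, adjusted p = 0.00065). TBL37, AT3G21690, UGT87A2, AT4G36430, AT1G50290 and AT1G17300 kept their calls without each of the 6 arrays.

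The largest falls included genes that were high on all SCR arrays and genes much higher on SCR replicates 2 and 3 than on replicate 1. To the first kind belonged AT2G38240, encoding an oxygenase that inactivates jasmonate, at 97.2, 136 and 141 in J0571, against 1297, 1935 and 1836 in SCR (log2 difference -3.73 ± 0.51 (SE), adjusted p = 0.00108), with up to 1488 in another line. So did AT1G78210, at 66.6, 38.5 and 56.9 in J0571, against 379, 489 and 466 in SCR (log2 difference -3.01 ± 0.35 (SE), adjusted p = 0.000401). To the second belonged AT5G53680, with 15.1, 5.79 and 11.0 in J0571, against 25.5, 403 and 424 in SCR (log2 -3.77, adjusted p = 0.00795). There SCR replicate 1 was close to the J0571 arrays, but still above them. The same held for hemb2, a gene of tetrapyrrole synthesis, with 12.7, 23.7 and 17.8 in J0571, against 42.7, 816 and 504 in SCR (log2 -3.73, adjusted p = 0.0139; the call was lost without J0571 replicates 1 or 3 or SCR replicates 2 or 3 (adjusted p 0.0575 to 0.0723)). AT1G56300, a DnaJ co-chaperone gene, had 20.8, 31.4 and 23.8 in J0571, against 61.0, 368 and 526 in SCR (log2 -3.08, adjusted p = 0.00636). AT5G47980, an acyltransferase gene of the BAHD family, had 2.64, 5.75 and 11.9 in J0571, all under background, against 35.6, 167 and 133 in SCR (log2 -3.51, adjusted p = 0.00481). SCR replicate 1 was again the lowest of its group. AT5G13200 had 58.9, 69.7 and 25.4 in J0571, against 201, 802 and 624 in SCR (log2 -3.23, adjusted p = 0.00306), and AT2G15960 had 22.7, 23.3 and 38.3 in J0571, against 103, 444 and 430.3 in SCR (log2 -3.20, adjusted p = 0.00567). Between these kinds lay the germin-like gene AT1G18980, which had 51.8, 204 and 8.29 in J0571, with replicate 2 nearest SCR, against 237, 766 and 364 in SCR (log2 -3.05, adjusted p = 0.029); its call was lost without J0571 replicates 1 or 3 or SCR replicates 2 or 3 (adjusted p 0.0786 to 0.132). With SCR replicate 1 as the only SCR array, AT2G38240 (adjusted p = 0.0488) and AT1G78210 (0.0217) were still called, and the other 7 genes of this paragraph were not (0.162 to 0.493).

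Heat shock genes encode chaperones induced by protein damage. Of 14 measured, 0 rose and 4 fell (28.6%, against 3.31% of all probe sets). All 14 had a negative log2 difference, with a median of -2.26 against 0.05 over all probe sets. The list mean was 6.15, 5.75 and 5.37 on the J0571 arrays, 5.83, 9.51 and 9.78 on SCR replicates 1, 2 and 3, and 4.58 to 7.22 on the other 9 arrays. SCR replicate 1 thus lay among the J0571 arrays and SCR replicates 2 and 3, the arrays with the low cre spike-in signals, above all others. The 4 that fell included AT2G19310, of the small heat shock proteins, with 19.3, 11.0 and 4.81 in J0571, against 39.0, 228 and 598 in SCR (log2 -3.81, adjusted p = 0.00642). The next was ROF2 (AT5G48570), a peptidyl-prolyl isomerase, with 77.2, 34.0 and 51.0 in J0571, against 112, 1724 and 1508 in SCR (log2 -3.64, adjusted p = 0.0177). HSA32, needed for long-term heat tolerance, read 58.2, 47.2 and 63.3 in J0571, against 68.3, 476 and 456 in SCR (log2 -2.10, adjusted p = 0.0273), and HSP22 read 63.1, 8.59 and 28.7 in J0571, against 36.9, 408 and 1050.1 in SCR (log2 -3.19, adjusted p = 0.0362; 0.0557 with no intensity trend). Without SCR replicate 1 all 14 were called lower, where 1316 of all 22746 probe sets were, and the median was -3.59. With SCR replicate 1 alone 0 were called and the median was -0.08. The count was 1 without SCR replicate 2 or 3 or J0571 replicate 1 or 3, and 3 without J0571 replicate 2; AT2G19310 kept its call in each.

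Of 122 probe sets for cytosolic ribosomal proteins, the core parts of the translation machinery, 57 rose and 1 fell. The share that rose was 46.7%, against 5.64% of all probe sets. The median log2 difference was 1.02, and 119 of the 122 differences were positive. The list mean was 10.40, 9.99 and 10.44 on the J0571 arrays and 9.72, 8.86 and 9.10 on the SCR arrays, against 9.76 to 10.57 on the other 9. The SCR arrays therefore had the lowest means of all 15 line arrays, replicate 1 by the least, and J0571 lay within the range of the other lines. AT5G48760 read 931, 737 and 988 in J0571, against 218, 206 and 348 in SCR (log2 difference 1.80 ± 0.26 (SE), adjusted p = 0.0013). AT3G14600 read 3304, 2048 and 3299 in J0571, against 882, 762 and 1047 in SCR (log2 difference 1.66 ± 0.25 (SE), adjusted p = 0.00161), and AT1G15250 read 292, 145 and 212 in J0571, against 50.4, 37.6 and 25.1 in SCR (log2 difference 2.44 ± 0.36 (SE), adjusted p = 0.00161). All 3 had groups apart and kept their calls without each array. The member that fell, AT2G40010, named after its values were seen, read 6.45, 5.65 and 15.5 in J0571, against 19.3, 111 and 91.4 in SCR (adjusted p = 0.00816). Ribosomal proteins are encoded by families of near-identical copies, so probe sets may not separate them.

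Over all 22746 probe sets, 286, 1719 and 366 rose without J0571 replicates 1, 2 and 3, and 2013, 612 and 610 without SCR replicates 1, 2 and 3. The number of ribosomal probe sets that rose was 9, 75 and 12, and 97, 18 and 22, in the same settings. With SCR replicate 1 alone it was 5, with a median of 0.49 against -0.14 over all probe sets in that setting. With only the J0571 and SCR arrays in the fit it was 8, at an unchanged median. The median stayed positive in every setting run, whereas the number of calls did not hold.

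Organelle-encoded transcripts differed widely between the SCR arrays. None of 69 plastid-encoded genes was called by limma (0 higher and 0 lower; 11 higher and 0 lower at an unadjusted p under 0.05, where 14.1% of all probe sets were higher), with a median of 0.79. Their mean was 8.28, 7.81 and 7.28 on the J0571 arrays and 8.67, 6.24 and 6.07 on SCR replicates 1, 2 and 3, against 7.27 to 8.70 on the other 9. Without SCR replicate 1, 39 were higher, where 2013 of all 22746 probe sets were. With that array alone the median turned to -0.88. The photosystem gene psbK read 456, 324 and 292 in J0571, against 489.9, 28.6 and 29.1 in SCR (adjusted p = 0.0814), and clpP, a protease subunit gene, read 2067, 2095 and 1703 in J0571, against 2883, 328 and 297 in SCR (adjusted p = 0.112). Of 23 mitochondrion-encoded probe sets, 1 rose (4.35%, against 5.64% of all probe sets) and 0 fell (median 0.43). Without SCR replicate 1, 7 rose and the median was 1.10. It was 0.05 without SCR replicate 2, and turned to -0.97 with SCR replicate 1 alone. The single call was ccb382, with 633, 1373 and 684 in J0571, against 699, 189 and 129 in SCR (log2 1.70, adjusted p = 0.035), and it was lost without J0571 replicates 1, 2 or 3 or SCR replicates 2 or 3 (adjusted p 0.0762 to 0.157) and with no intensity trend (0.0583).

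**Figure D4:**
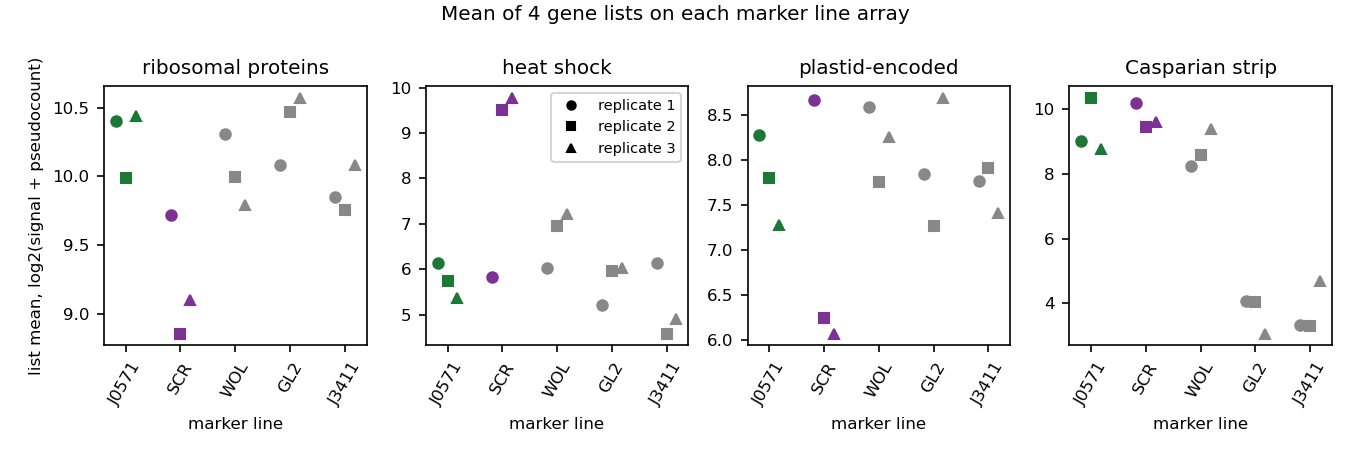
Mean log2(signal + 2.38) of the ribosomal protein, heat shock, plastid-encoded and Casparian strip lists on each of the 15 marker line arrays, J0571 first (green) and SCR second (purple), replicates by shape. SCR replicates 2 and 3 stand apart from SCR replicate 1 for heat shock and plastid-encoded genes, and J0571 replicate 2 stands apart for Casparian strip genes.

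Cell division genes were higher in J0571 in 2 of 14 (14.3%, against 5.64% of all probe sets) and lower in 0. The median was 0.88, with 13 positive differences. J0571 was wholly above SCR in 9 of the 14, and in 13.9% of all probe sets. The clearest was 3xHMG-box2, a DNA-binding protein of mitotic chromosomes, with 234, 179.8 and 210.4 in J0571, against 77.9, 65.3 and 73.6 in SCR (log2 difference 1.49 ± 0.22 (SE), adjusted p = 0.00161), called also without each array. Its relative 3xHMG-box1 read 80.0, 40.3 and 69.4 in J0571, against 34.3, 22.2 and 9.10 in SCR (log2 1.53, adjusted p = 0.0238); this call was lost without J0571 replicates 1 or 3 or SCR replicates 2 or 3 (adjusted p 0.0563 to 0.124). In the other lines 3xHMG-box2 lay at 150 to 289, so that SCR was the line apart. Aurora kinase AUR1 had 160.0, 170.3 and 108 in J0571, against 101, 65.3 and 66.4 in SCR (adjusted p = 0.0741). The count was 6 without SCR replicate 1, 4 without J0571 replicate 2 and 1 without each of the other 4 arrays. Over all 22746 probe sets 2013 were higher without SCR replicate 1 and 1719 without J0571 replicate 2.

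Of 2 quiescent centre and stem cell niche genes, 1 rose and 0 fell, where 5.64% of all probe sets rose and 3.31% fell. BBM, an AP2 factor of the stem cell niche, read 65.0, 48.1 and 39.8 in J0571, against 17.0, 3.11 and 7.33 in SCR (log2 difference 2.37 ± 0.53 (SE), adjusted p = 0.0137); the call was lost without J0571 replicate 1 or SCR replicate 2 (adjusted p 0.0675 to 0.0762). AGL42, a MADS factor used as a quiescent centre marker, had 13.4, 24.1 and 7.17 in J0571, against 38.7, 53.7 and 56.6 in SCR, with the groups apart in the other direction and adjusted p = 0.0578. Both lines are labelled for the quiescent centre, and these 2 genes did not move together.

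UDP-glycosyltransferases attach sugars to hormones and secondary metabolites. Of 47 measured, 0 rose and 9 fell (19.1%), whereas 5.64% of all probe sets rose and 3.31% fell. The median was -0.36, against 0.05 over all probe sets. After UGT87A2, the smallest adjusted p-values were those of UGT73D1, at 6.81, 2.37 and 10.7 in J0571, against 46.9, 80.1 and 55.3 in SCR (log2 -2.89, adjusted p = 0.00243), and of UGT71C2, at 3.04, 3.60 and 4.22 in J0571, against 28.6, 41.0 and 28.8 in SCR (log2 -2.54, adjusted p = 0.00608). Both were under background on all J0571 arrays. UGT73B4 read 89.7, 145 and 66.5 in J0571, against 207, 720.1 and 703 in SCR and 224 to 809.7 in the other lines (log2 -2.28, adjusted p = 0.00721); J0571 was below all 12 others. The number that fell was 4 without SCR replicate 2, SCR replicate 3 or J0571 replicate 1, and 6 without J0571 replicate 3. It was 12 without SCR replicate 1 and 13 without J0571 replicate 2, where 1316 and 962 of all 22746 probe sets fell. With SCR replicate 1 alone the median was -0.37.

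Among genes of other stress and metabolite enzymes, GSTU25, a glutathione transferase, was the most firmly called. It read 109, 141 and 116 in J0571, against 1081, 586 and 875 in SCR and 303 to 2418 in the other lines (log2 difference -2.74 ± 0.30 (SE), adjusted p = 0.000266), was called without each array, and was called with SCR replicate 1 alone (adjusted p = 0.00265). J0571 had the lowest 3 of the 15 signals. It was the only one of 14 glutathione transferases called, whereas without J0571 replicate 2 there were 2 lower and 1 higher. Of 55 class III peroxidases, which cross-link wall polymers, 2 rose (3.64%) and 4 fell (7.27%), against 5.64% and 3.31% of all probe sets. Their median was -0.12, with 0 to 5 rising and 1 to 5 falling when single arrays were left out. The median of the peroxidases turned to 0.26 without SCR replicate 1 and to 0.05 without J0571 replicate 1. AT5G15180 rose, with 113, 140.2 and 74.6 in J0571, against 38.9, 16.9 and 22.2 in SCR (log2 2.01, adjusted p = 0.017); its call was lost without J0571 replicate 1 or SCR replicates 2 or 3 (adjusted p 0.062 to 0.0756). Of 20 beta-glucosidases 1 rose and 2 fell, and 1 fell without J0571 replicates 1 or 3 or SCR replicates 2 or 3. BGLU43 had 32.3, 26.7 and 35.4 in J0571, against 1.87, 0.347 and 0.409 in SCR, where all arrays were under background (log2 3.40, adjusted p = 0.000809). BGLU16 had 71.4, 148 and 105 in J0571, against 214, 358 and 479.8 in SCR (log2 -1.66, adjusted p = 0.00702), with J0571 below all 12 other arrays.

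The wall gene lists gave at most 2 calls in a direction, where 5.64% of all probe sets were higher and 3.31% lower. Of 27 expansins and XTHs, which loosen and rejoin wall polymers, 1 rose and 0 fell: EXPA4, an expansin, read 138, 86.2 and 131 in J0571, against 56.6, 12.8 and 26.5 in SCR (log2 difference 2.00 ± 0.37 (SE), adjusted p = 0.00551). The number that rose was 3 without SCR replicate 1 and 2 without SCR replicate 2 or J0571 replicate 2. Of 22 TBL genes 1 rose and 2 fell. TBL36 rose, with 189.5, 77.9 and 100.4 in J0571, against 41.1, 22.2 and 14.3 in SCR (log2 2.16, adjusted p = 0.0045), while TBL37 fell as given above. TBL30 fell, with 95.3, 315 and 75.7 in J0571, against 407, 383 and 397 in SCR (log2 -1.57, adjusted p = 0.0271). J0571 replicate 2 stood near the SCR arrays in TBL30, as in the barrier genes, and the call was lost without J0571 replicates 1 or 3 or SCR replicates 2 or 3 (adjusted p 0.0772 to 0.143) and with all 27 arrays in the fit (0.0839). Of 15 endoglucanases GH9C2 alone was called, at 541, 404 and 477 in J0571, against 345, 54.8 and 142 in SCR (log2 1.74, adjusted p = 0.0302); this call was lost without J0571 replicates 1 or 3 or SCR replicates 2 or 3 (adjusted p 0.0853 to 0.124) and with no intensity trend (0.0525).

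Regulators and signalling genes gave few calls, beside shares of 5.64% higher and 3.31% lower over all probe sets. LBD16, an auxin-induced factor of lateral root initiation, was lower in J0571, with 65.2, 95.3 and 72.6, against 212, 365 and 367 in SCR (log2 difference -1.96 ± 0.27 (SE), adjusted p = 0.00108). It was the single call among 21 auxin response genes and among 4 vascular and pericycle regulators, and held without each array. bHLH104, a regulator of the iron deficiency response, had 66.3, 76.0 and 69.9 in J0571, against 184, 297 and 290.0 in SCR (log2 difference -1.80 ± 0.22 (SE), adjusted p = 0.000607), the single call among 14 iron and zinc genes. Of 14 touch, wound and elicitor genes 2 rose and 0 fell. ORA47, a wound-induced AP2/ERF factor of the jasmonate response, read 623, 870.1 and 789 in J0571, against 258, 89.0 and 157 in SCR (log2 2.28, adjusted p = 0.00196), with 356 to 908 in the other lines. STZ (ZAT10), a zinc finger factor of stress responses, read 2488, 1558 and 2832 in J0571, against 1000.4, 647 and 1102 in SCR (log2 1.31, adjusted p = 0.0262); the call was lost without J0571 replicates 1 or 3 or SCR replicate 2 (adjusted p 0.114 to 0.124) and with all 27 arrays (0.0633). GID1A, a gibberellin receptor, had 108, 80.0 and 132 in J0571, against 60.7, 55.4 and 44.0 in SCR (log2 0.95, adjusted p = 0.04), the single call among 3 gibberellin genes, lost without J0571 replicates 1 or 3 or SCR replicates 2 or 3 (adjusted p 0.0904 to 0.184), with quantile normalization (0.0524) and with no intensity trend (0.0547); the fitted difference was under 2-fold.

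Of the markers of neighbouring tissues, the vascular and pericycle list held the LBD16 call given above. None of 9 root hair, 4 root cap, 6 xylem and 3 phloem genes was called by limma. At an unadjusted p under 0.05, 1 root hair gene was lower and 1 root cap gene higher. Over all probe sets 14.1% were higher and 9.41% lower at that level. The lack of calls rested on SCR replicate 1: without it 3 of the 4 root cap genes and 1 phloem gene were called higher and 1 root hair gene lower. Over all 22746 probe sets 2013 were called higher and 1316 lower without that array. The root cap median was then 1.79, and it was -1.64 with SCR replicate 1 alone, against 0.69 with all arrays. The root hair median was 0.25 without SCR replicate 1 and -1.99 with it alone, against -0.59. The summed signal of the root hair genes was 780.4 to 899 in J0571, 1110.5 to 1315 in SCR and 492 to 3732 in the other 9 arrays. That of the root cap genes was 161 to 429 in J0571, 73.6 to 742 in SCR and 518 to 5962 in the others. On SCR replicate 1 root cap genes were higher than on SCR replicates 2 and 3: sks15, a root cap gene, read 143, 59.1 and 156 in J0571 and 338, 46.5 and 43.9 in SCR. The xylem sums were 376 to 623 in J0571, 400.0 to 572 in SCR and 202 to 763 in the others, and the phloem sums 28.3 to 65.4 in J0571, 12.6 to 61.2 in SCR and 42.1 to 124 in the others. No marker was at exactly 0 on any of the 6 arrays, and the part of neighbouring cells in the differences above was not tested.

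**Figure D5:**
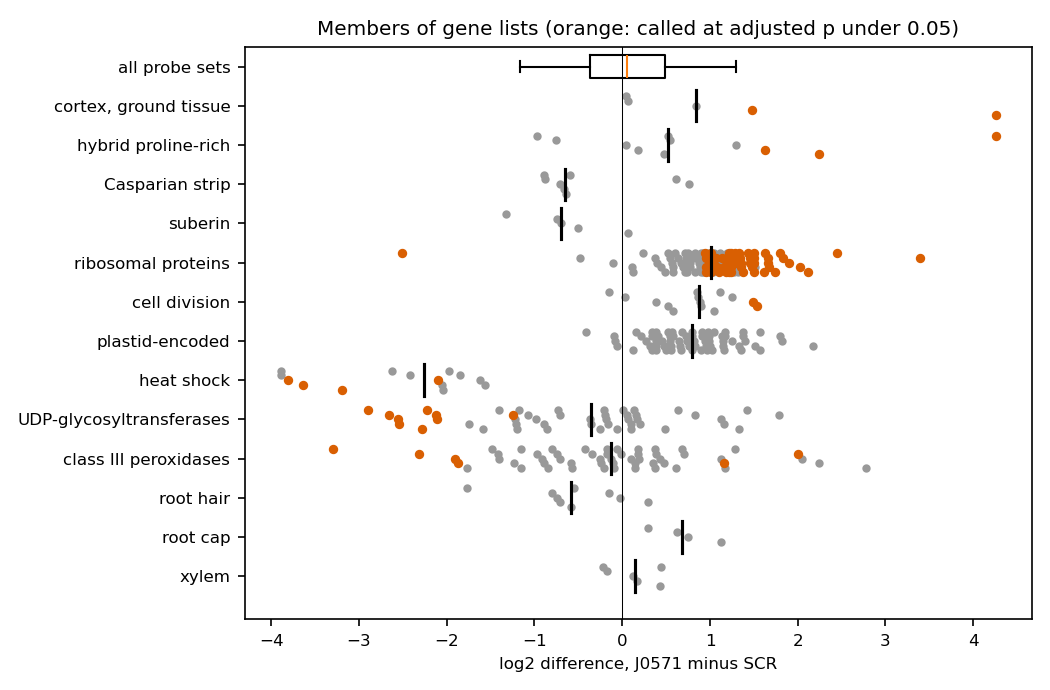
Log2 difference, J0571 minus SCR, of every measured member of 13 gene lists (1 point per probe set, orange where called at an adjusted p under 0.05, black bar for the list median), below a box for all 22746 probe sets (median, quartiles and whiskers at the 5th and 95th percentiles). Ribosomal protein genes lie mostly above 0 and heat shock genes entirely below it.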

How the data were processed

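Each array measured RNA of Arabidopsis roots on the ATH1 platform. The authors made the deposited signal intensities, linear and 1 per probe set, with MAS5, per the submitters' processing notes. Version and options are not named in the sources used here. The 2% trimmed mean was 100.0 on every array. Values were used as deposited, with 2.38 (the 10th percentile of all values) added before log2. The 64 control probe sets were removed and the other 22746 tested; the platform annotation assigns 1 gene to 13513, several to 503 and none to 8730. A gene is named only where its probe set has 1, and 13436 of these matched a locus of the TAIR10.1 table, used for names and neighbours only.

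A mean per line was fitted to the 15 marker line arrays in limma 3.58.1 under R 4.3.3, so that the 5 lines share 1 estimate of the spread. Variances were moderated along an intensity trend, and J0571 minus SCR was tested with Benjamini-Hochberg adjustment at 0.05. The pipeline was tested on simulated data. The members and lists were chosen with earlier results of these data known, and several lists were extended after reading the annotation. The naming rule takes up to 12 largest rises and 12 largest falls (called, 1 gene, higher line's mean at least 100, lines not overlapping). It adds up to 10 called genes with J0571 above all other line arrays and 10 with SCR above them, all cortex genes, per described list up to 4 members of lowest adjusted p, and the 5 probe sets most correlated with CO2. Fewer are printed in places. Ranks follow the fitted log2 difference, which for signals under background depends on the pseudocount. Background, 13.0, is the 95th percentile over the line arrays of 15 bacterial control probe sets without spike-in, a level chosen after seeing the data. Alternatives were no pseudocount, the 25th percentile (11.0) as pseudocount, quantile normalization, a mean of at least 20, no intensity trend, only the 6 arrays, all 27 arrays, a replicate block, calls of at least 2-fold, single arrays left out, and SCR replicate 1 alone. Sequences and genome coordinates were not used here.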

Additional observations from a re-analysis of the deposited data

Results flagged for a closer look

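Single arrays lay apart in the root segments, which have 4 arrays per stage, for 2 of the genes above by Dixon's test. JKD read 82.6 on 1 stage II array, against a stage II median of 34.5. AT2G45180 read 22.7 on 1 stage I array, against a median of 48.2 and a highest value of 51.9. In all 15 sets of 4 arrays were tested, and chance alone gives about 1 such array in 20 sets. Neither array enters the comparison of J0571 with SCR.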

How the results depend on the processing

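CO2 and the other 75 called genes that the naming rule takes kept their sign under all alternatives run. The rule's largest rises and falls, and its genes above all other line arrays, require lines that do not overlap. For these, leaving out arrays or changing the pseudocount could not reverse the sign. Medians of several lists turned: with SCR replicate 1 alone those of the plastid-encoded (-0.88), mitochondrion-encoded (-0.97), hybrid proline-rich (-0.17) and root cap genes (-1.64), and without SCR replicate 1 those of the peroxidases (0.26) and root hair genes (0.25). The log2 difference of CO2 was 3.71 to 5.10 over 16 alternatives and 3.72 to 5.10 with single arrays left out. Leaving out single arrays gave 475 to 3329 called probe sets, 286 to 2013 higher and 189 to 1316 lower. With only the J0571 and SCR arrays in the fit 353 were called, 216 higher and 137 lower. With SCR replicate 1 as the only SCR array there were 345, 235 higher and 110 lower. Both use fewer arrays; beyond that the cause was not tested. The median of all differences was -0.14 in the second. The other settings gave 1536 (no intensity trend) to 2682 (all 27 arrays) calls. Of the 75 genes, 39 kept their call with only the 6 arrays, 20 with SCR replicate 1 alone, 46 to 74 with single arrays left out, and 66 or more under the other alternatives (71 genes passed the filter on dim probe sets, and all of these kept it).

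Replicate numbers are shared by both lines, but same-numbered arrays did not deviate together (correlations of their deviations -0.05, -0.03 and -0.07), so the numbers do not pair the arrays. With the replicate block 1642 probe sets were called, 1046 higher and 596 lower, CO2 had an adjusted p of 0.00258, and 68 of the 75 genes kept their call. The 7 that lost it (adjusted p 0.0511 to 0.0725) were AT4G22460, BGLU32, GID1A, PRXR1, SWEET17, ccb382 and scpl50. Between 24.4% and 28.1% of probe sets on the J0571 arrays and 22.1% and 35.3% on the SCR arrays were at or under background, where a fold is only a bound. Tissue and background strain differ together and cannot be told apart here.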

Other observations

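Other gene families gave 0 or 1 call in each direction, where 5.64% of all probe sets were higher and 3.31% lower. Of 14 SWEET sugar transporters 0 rose and 1 fell, SWEET17, a vacuolar fructose transporter, with 24.7, 36.5 and 31.7 in J0571, against 52.4, 100.4 and 64.9 in SCR (limma, log2 -1.13, adjusted p = 0.0491); the call was lost without J0571 replicates 1 or 3 or SCR replicates 2 or 3 (adjusted p 0.0998 to 0.201), with quantile normalization (0.0524) and with no intensity trend (0.0579). Of 15 tetraspanins 1 rose and 0 fell. TET3 read 170.2, 176 and 154 in J0571, against 146, 29.5 and 24.4 in SCR (log2 1.75, adjusted p = 0.0229), with SCR replicate 1 near the J0571 arrays, and the call was lost without J0571 replicates 1 or 3 or SCR replicates 2 or 3 (adjusted p 0.0741 to 0.107). Of 29 serine carboxypeptidase-like genes 1 rose and 1 fell. The member that fell, scpl46, read 18.3, 44.5 and 3.01 in J0571, against 51.4, 141 and 82.0 in SCR (log2 -2.32, adjusted p = 0.0256), with J0571 replicate 2 nearest SCR; its call was lost without J0571 replicates 1 or 3 or SCR replicates 2 or 3 (adjusted p 0.072 to 0.116).

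Endoplasmic reticulum bodies are stores of beta-glucosidase typical of Arabidopsis roots and seedlings. Of 3 genes measured, NAI1, the factor that drives their formation, fell, with 63.6, 90.8 and 75.3 in J0571, against 114, 204 and 177 in SCR (log2 -1.06, adjusted p = 0.0268); the call was lost without J0571 replicates 1 or 3 or SCR replicates 2 or 3 (adjusted p 0.0918 to 0.131) and with no intensity trend (0.0525). The main body protein PYK10 read 866, 1152 and 910.2 in J0571, against 773, 521 and 719 in SCR and 1222 to 6776 in the other lines (adjusted p = 0.218). Both ground tissue lines thus lay below all 9 other line arrays. Among 25 cytochrome P450 genes, 7 tubulins, 8 histone-list genes and 6 WRKY factors limma called 0. At an unadjusted p under 0.05, 2 P450 genes were higher and 1 lower, 1 tubulin was higher, and 3 of the histone list were higher and 1 lower, against 14.1% higher and 9.41% lower over all probe sets. Without SCR replicate 1 limma called 2 of the histone list higher and 1 lower, and 1 tubulin higher. Over all 22746 probe sets that setting called 2013 higher and 1316 lower.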
